A study of Arabidopsis thaliana with 58 samples.

Results

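The genes described here are the very long genes of Arabidopsis thaliana. They were chosen by their span alone, as the genes on chromosomes 1 to 5 that reach at least 8000 bp from the first to the last annotated base and whose identifier carries no suffix of a dot and 1. Of 33331 nuclear genes in the count table, 260 met this rule. They were set against 2565 genes of 4000 to below 8000 bp and 26622 shorter genes. The span of the 260 genes ran from 8009 to 58518 bp, with a median of 9399 bp. Just inside the limit lay GTB1 (8009 bp) and just outside it WRKY19 (7992 bp).

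All samples were whole seedlings, 9 days old, grown in continuous white light. The wild type (WT) was the Col-0 ecotype. The pkl group was labelled as a mutant of PICKLE (PKL), with no allele named. Histone H3 monomethylated, dimethylated or trimethylated at lysine 4 (H3K4me1, H3K4me2 and H3K4me3) was mapped by chromatin immunoprecipitation (ChIP) in WT and pkl. PKL itself was mapped with an anti-PKL antibody in WT and in the mutant lines jaw-5D, pifQ and hy5. In jaw-5D a microRNA lowers the transcripts of a class of TCP transcription factors, pifQ lacks several phytochrome-interacting factors, and hy5 lacks the light-signalling factor HY5. RNA was sequenced in pkl. Each group had 3 libraries, named as biological replicates, so a p-value measures the spread between these samples. Because whole seedlings were used, a difference in a few cells cannot be told apart from a smaller difference in many.

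In plants, H3K4me3 marks the first nucleosomes of active genes, H3K4me2 lies around and just behind them, and H3K4me1 covers the bodies of transcribed genes. PKL belongs to the CHD3 class of chromatin remodelers, which use ATP to move nucleosomes, and is known for keeping seed genes silent in seedlings. In short genes the zones of the 3 marks overlap, whereas a long gene spreads them along its length. The files give peaks, the stretches called as enriched in a library. The measure used throughout is the number of bp of a gene that lie under peaks, or that number as a share of the gene. It describes the length called as enriched and not the amount of signal. How deeply the ChIP libraries were sequenced is unknown. Peak lists of H3K4me2 covered 13.6 to 15.3 Mb of the genome in WT and 15.0 to 17.2 Mb in pkl, and this difference moves with the H3K4me2 results. Values at equal length are given too for its share, position, number of marked genes, bp by distance and calls. They are not given for its edge, overlap with other marks and excess over shorter genes. Nor are they given for sets of genes by PKL, FPKM or name. The RNA libraries held 17300314 to 17656899 counts, of which 2.19 to 2.31% fell in the 260 genes. The leaf genes RBCS1A and CAB1 had mean levels of 24411 and 15801 FPKM (fragments per kb of exon, scaled to the library size), while the seed storage gene CRU3 was listed at 0 in all 3 libraries.

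The 260 genes were mostly dense with introns. Their median number of separate exon stretches was 27, and introns made up a median of 45.4% of the gene. RefSeq classed 257 as protein coding and 3 as transcribed pseudogenes. Another annotated gene overlapped 44 of them, and a peak there can belong to either gene. Chromosomes 1 to 5 held 72, 41, 55, 34 and 58 of them. The longest was AT5G32690, a transcribed pseudogene (chromosome 5, 12332283 to 12390801, TAIR10), which consists almost wholly of 1 intron and overlaps 11 other genes. It was followed by ATM (31257 bp), the kinase that signals DNA breaks, AT1G48090 (26434 bp), AT1G67120 (25964 bp), which encodes the ribosome assembly factor MIDASIN 1, and AT4G17140 (23543 bp). Among named protein families there were class XI myosin motor genes, such as XIK and XIF, and callose synthases of the GSL family. PKL itself is one of the 260 genes (chromosome 2, 10713807 to 10723986), and 2 other genes overlap it.

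H3K4me1 filled these genes. In the WT libraries 1, 2 and 3 it covered on average 75.1%, 74.3% and 73.6% of their length, and in pkl 75.1%, 76.0% and 77.2%. The lowest pkl value and the highest WT value were thus nearly equal. The means were 74.4% ± 0.743 in WT and 76.1% ± 1.02 in pkl (SD, n = 3), with an exact two-sided permutation p of 0.10. That is the smallest value that 3 against 3 libraries allow, and after Benjamini-Hochberg adjustment over the 6 tests of share and position it was 0.15. The size of the difference depended on the peaks counted: with peaks of a −log10 q of at least 10 the shares were 64%, 51.7% and 55.8% in WT, below the 66.1%, 66.9% and 68.8% of pkl, a mean difference of 10.1 points. With libraries trimmed, strongest peaks first, to equal length under peaks, the difference was 0.675 points and the groups overlapped. In each WT library 250 of the 260 genes carried the mark (at least 150 bp under peaks). The mark was often 1 unbroken domain: the longest peak alone covered a median of 75.7 to 80.3% of a marked gene in WT and 78.4 to 85.2% in pkl. Marked genes had on average 2.12 ± 0.0460 peaks in WT and 1.86 ± 0.0583 in pkl, and these values did not overlap between the groups.

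The domain began inside the gene and stopped before its end. In WT, the first base of H3K4me1 lay at a median of 612, 656 and 624 bp from the start, and in pkl at 636, 614 and 598 bp. These ranges overlapped, and the difference of -14.7 bp had an exact permutation p of 0.500. From 1000 bp onward 82.9% of bases were covered in WT and 84.8% in pkl, and the share stayed near that level along the body. Toward the end of the gene, the last base of the mark lay a median of 561, 577 and 633 bp before the end in WT, and 561, 550 and 504 bp in pkl. The mean position of the mark was 5287 bp ± 45.2 from the start in WT and 5316 bp ± 43.4 in pkl (exact p = 0.20, adjusted 0.240), a difference of 29.0 bp that was 151.4 bp with the strong peaks and 3.47 bp at equal length.

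H3K4me3 and H3K4me2 occupied only the first stretch. H3K4me3 was found on 229 or 230 of the 260 genes in the WT libraries and on 228 to 232 in pkl. It covered 6.55%, 6.35% and 6.24% of the gene length in WT and 6.63%, 6.66% and 6.55% in pkl. The mean difference was 0.236 percentage points, with the lowest pkl value at the level of the highest WT value (exact p = 0.10, adjusted 0.15). Its mean position was 652 bp ± 21.9 in WT and 651 bp ± 10.8 in pkl (exact p = 0.900). The peak nearest the start ended at a median of 667 to 687 bp in WT and 687 to 698 bp in pkl. H3K4me3 therefore ended about where H3K4me1 began, and 13%, 12% and 11% of its bases in WT and 14.9%, 15.0% and 14.6% in pkl lay under H3K4me1 peaks.

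**Figure D1:**
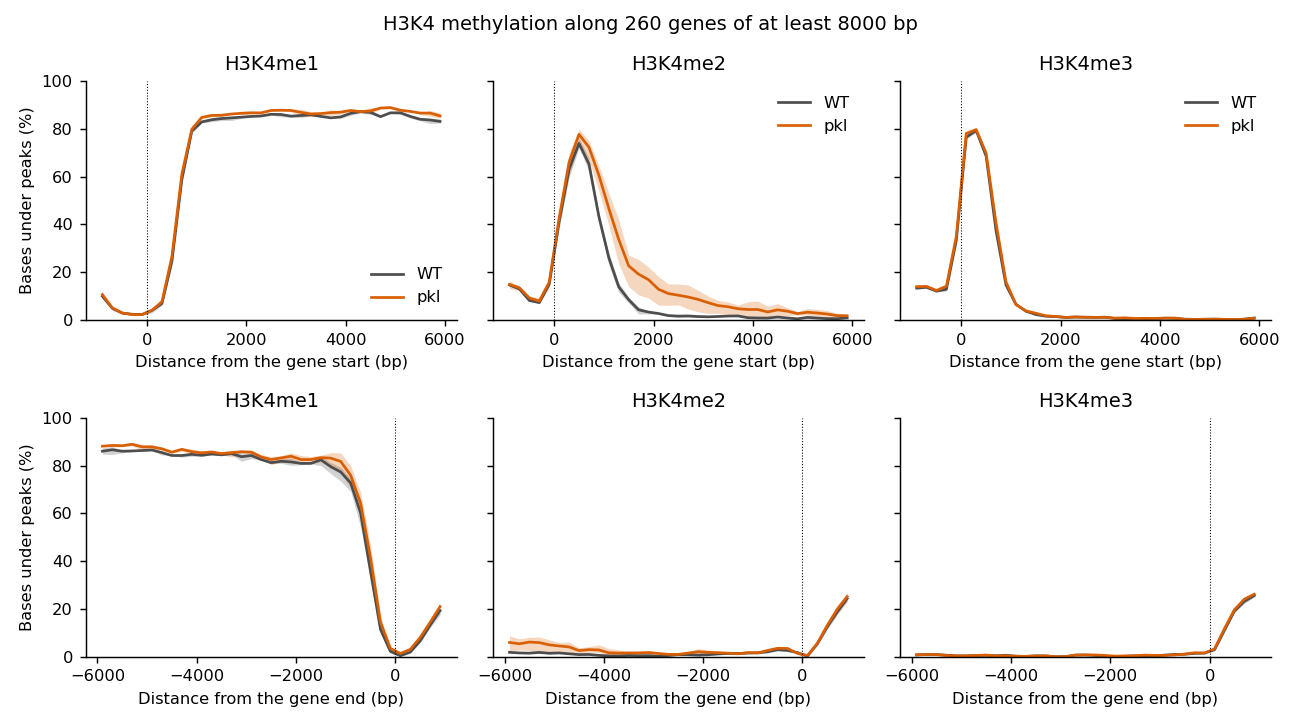
Share of bases under peaks (%, 200 bp bins) against distance from the gene start (top) and gene end (bottom) in the 260 genes, as the mean of 3 libraries with a band from the lowest to the highest library, WT grey and pkl orange. H3K4me1 holds above 80% along the body in both genotypes. From about 800 bp inward of the gene start the H3K4me2 curve of pkl lies above that of WT, but not in every bin near the gene end. The H3K4me3 curves lie close together, with 37.4% in WT and 40.6% in pkl at 600 to 800 bp.

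With all peaks counted, H3K4me2 had the largest mean difference in share of the 3 marks. With a −log10 q of at least 10 it had a smaller one than H3K4me1, 2.69 against 10.1 points. H3K4me2 covered 8.41%, 7.37% and 7.89% of their length in WT and 9.43%, 13.0% and 14.2% in pkl. All pkl libraries lay above all WT libraries, with pkl replicate 1 closest to WT. The means were 7.89% ± 0.522 and 12.2% ± 2.46, a difference of 4.29 percentage points (exact p = 0.10, the smallest possible; adjusted 0.15). Its mean position lay farther inward in pkl, at 1238, 1497 and 1599 bp, than in WT, at 984, 899 and 986 bp. The mean difference was 488 bp, again with no overlap and an exact p of 0.10 (adjusted 0.15). With all peaks the number of genes carrying the mark was much the same, at 241 to 243 in WT and 243 to 250 in pkl. This depended on the peaks counted. At equal length under peaks it was 214, 241 and 233 in WT and 214, 199 and 217 in pkl. With a −log10 q of at least 10 it was 144, 97 and 112 in WT, below the 147, 175 and 161 of pkl.

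With all peaks, most of the H3K4me2 difference in bp lay beyond the first kb. In the first kb, the 260 genes held on average 574 bp ± 25.4 of H3K4me2 in WT and 639 bp ± 43.2 in pkl. From 1 to 2 kb they held 112 bp ± 16.1 and 278 bp ± 75.5, from 2 to 4 kb 33.6 bp ± 3.62 and 162 bp ± 78.6, and beyond 4 kb 49.1 bp ± 7.11 and 126 bp ± 56.7. At 1000 to 1200 bp from the start, 27.1%, 23.0% and 28.2% of bases were covered in WT and 39.6%, 47.3% and 53.1% in pkl. At 2000 to 2200 bp these shares lay at 3.07%, 2.50% and 2.67% in WT, and at 6.27%, 14.1% and 18.2% in pkl. Beyond the first kb every pkl library was thus above every WT library, and pkl replicate 1 was again the lowest of the pkl libraries. The H3K4me2 peak nearest the start ended at a median of 943, 890 and 945 bp in WT and 1104, 1320 and 1410 bp in pkl. This edge differed by 352 bp (exact p = 0.10; adjusted 0.125 over 5 tests added after the data had been seen).

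Farther in, H3K4me2 appeared in pkl as additional small peaks. Peaks whose summit lay at least 1500 bp inside a gene numbered 45, 36 and 47 in the WT libraries and 85, 185 and 241 in pkl. They were weaker than those at the start. Their median fold enrichment, the authors' value, was 2.47 to 2.66 in WT and 1.94 to 2.09 in pkl, against 2.71 to 2.99 for peaks near the start in both genotypes. In pkl, 6.22 to 15.3% of these inner peaks reached a −log10 q of 10, against 57.7 to 64.3% of the peaks near the start.

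H3K4me2 overlapped more with H3K4me1 in pkl. Of the H3K4me2 bases in these genes, 39.8%, 37.2% and 41.7% lay under H3K4me1 peaks in WT and 51.9%, 61.4% and 66.1% in pkl (exact p = 0.10, adjusted 0.125). The share under H3K4me3 was 57.4%, 60.6% and 56.8% in WT and 48.3%, 38.5% and 34.1% in pkl. Exons made up 53.9% of the summed length of these genes and 58.9% ± 0.346 of the H3K4me2 bases in WT, against 56.3% ± 0.580 in pkl.

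The size of the H3K4me2 difference depended on which peaks were counted. When each library was trimmed, strongest peaks first, to the same length of genome under peaks, the share was 7.52%, 7.37% and 7.61% in WT and 8.09%, 8.33% and 9.42% in pkl. The groups still did not overlap, but the difference was smaller. The mean position was then 930, 899 and 980 bp in WT and 1057, 955 and 1013 bp in pkl, so that the groups overlapped. With a −log10 q of at least 10, the WT shares of 5.05%, 2.96% and 3.69% lay below the pkl shares of 5.46%, 7.20% and 7.10%, and the mean positions, 771 to 923 bp and 881 to 939 bp, overlapped. With strong peaks the largest part of the difference was in the first kb, at 308.5 bp ± 70.2 in WT and 453 bp ± 53.8 in pkl, followed by 49.7 bp ± 12.9 and 147.9 bp ± 41.1 from 1 to 2 kb. With equal length it was from 1 to 2 kb, at 101.9 bp ± 8.02 and 197.3 bp ± 40.7, while the first kb held 552.8 bp ± 2.91 and 564.7 bp ± 24.7. From 2 to 4 kb the values were 30.6 bp ± 1.25 and 44.6 bp ± 9.15 with equal length, and 11.4 bp ± 3.9 and 30.9 bp ± 9.27 with strong peaks. Beyond 4 kb, equal length gave 45.6 bp ± 2.86 in WT and 44.0 bp ± 5.86 in pkl.

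**Figure D2:**
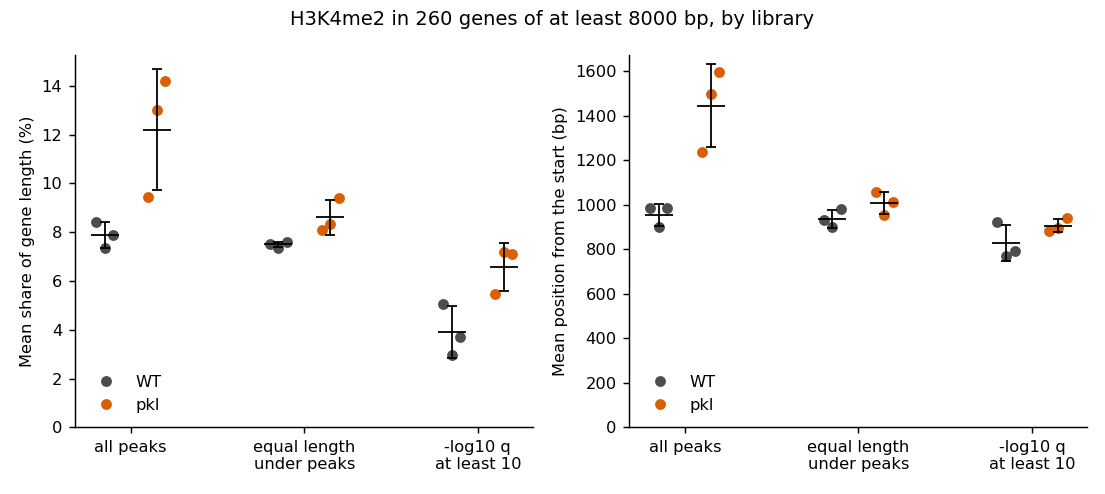
Mean share of gene length under H3K4me2 (left, %) and mean position of H3K4me2 from the gene start (right, bp) in the 260 genes, per library (dots, WT grey and pkl orange) with the mean and SD (black, n = 3), for all peaks, for libraries trimmed to equal length under peaks, and for peaks with a −log10 q of at least 10. With all peaks the pkl positions run from 1238 to 1599 bp and lie above WT, and with either other choice the positions of the groups overlap.

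Among single genes, few differences passed the test. With limma on log2 of bp plus 100 and an adjusted p under 0.05 over all genes, 6 of the 246 long genes tested for H3K4me2 had more bp under peaks in pkl and 0 had fewer. Among all 19091 genes tested 1.19% were called higher and 0.587% lower, so higher calls were more frequent in the long genes, a difference that was not tested. At an unadjusted p under 0.05 there were 83 of the 246, in either direction, against 14.6% of all genes tested. A shift of 0.160 (log2) separated pkl from WT over genes marked in every library, and relative to that shift (centred) 5 long genes were higher and 0 lower, against 0.948% and 0.634% of all genes. These were CHR5, GSL8, GRV2 and CPSF160 of the 6, and CHR4, a further CHD-class remodeler, which had 437, 266 and 277 bp in WT and 713, 1002 and 993 bp in pkl (centred adjusted p = 0.0497). The median log2 difference of the 246 genes was 0.472, or 0.311 centred, while that of all genes tested was 0.116, or -0.0449 centred. In 99 of the 260 genes all 3 pkl values exceeded all 3 WT values, and in 4 they fell below. Over all nuclear genes these shares were 10.9% and 2.21%. For H3K4me1 the same counts were 39 and 4, against 4.58% and 1.15% of all genes, and for H3K4me3 35 and 6, against 8.25% and 1.86%. The calls rested on few libraries: without WT replicate 2, pkl replicate 2 or pkl replicate 3 there were 0, without WT replicate 1 or WT replicate 3 there was 1, and without pkl replicate 1 there were 9. With libraries trimmed to equal length, 2 long genes were called higher and 3 lower, against 0.398% and 2.59% of all genes, and none of the 6 was among them.

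CHR5, a CHD-class chromatin remodeler related to PKL (chromosome 2, 5544181 to 5556464), had 529, 506 and 698 bp of H3K4me2 in WT and 1646, 1987 and 2758 bp in pkl. The pkl values all lay above the highest WT value, and the centred log2 difference was 1.54 (adjusted p = 0.0270). CPSF160, a subunit of the complex that cleaves pre-mRNA before polyadenylation (chromosome 5, 20980215 to 20989427), had 832, 685 and 716 bp in WT and 1454, 1581 and 1392 bp in pkl (centred log2 0.74, adjusted p = 0.0251). The spread within each genotype was small beside this difference. GSL8, a callose synthase needed for cell division (chromosome 2, 15454697 to 15469889), had 956, 856 and 989 bp in WT and 1706, 2153 and 2341 bp in pkl (centred log2 0.90, adjusted p = 0.0222), and 1 other gene overlaps it.

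GRV2, which acts in endosome traffic and in the response to gravity (chromosome 2, 11462067 to 11474325), had 652, 612 and 662 bp in WT and 1084, 1539 and 1432 bp in pkl (centred log2 0.80, adjusted p = 0.0406). AT4G38760 (chromosome 4, 18084908 to 18096166) had 746, 556 and 710 bp in WT and 2276, 1640 and 1729 bp in pkl, with an adjusted p of 0.0268 without centring and 0.0557 with it. Its pkl values all lay above its WT values. AT1G72270 (chromosome 1, 27199733 to 27211161) differed from the others in that H3K4me2 was already long in WT, at 2629, 2830 and 2557 bp, against 3748, 4003 and 3723 bp in pkl. Its adjusted p was 0.0493 and 0.279 centred, and its expression in pkl was low, at 0.948 ± 0.0903 FPKM. The mean position of the mark was 746 bp in WT and 1948 bp in pkl for CHR5, and 569 and 2338 bp for GSL8.

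Tested in 1 kb windows, 23 of 392 windows of the long genes had more H3K4me2 in pkl and 0 had less, while 2.08% of all 21350 windows were called higher and 0.445% lower. By distance, 2 of the 230 tested windows in the first kb were called, 7 of 100 in the second, 8 of 24 in the third and 5 of 11 in the fourth. The windows belonged to 23 different genes, and 18 of them were at 0 bp in all 3 WT libraries. A window that only pkl fills passes the filter through pkl, so such windows had to differ. Examples, chosen after their values were seen, were GLT1 at 3 to 4 kb (0 bp in each WT library and 368, 471 and 432 bp in pkl; adjusted p = 0.000438) and SCD1 at 1 to 2 kb (0 bp, and 300, 384 and 382 bp; adjusted p = 0.000743). GLT1 encodes an NADH-dependent glutamate synthase, and SCD1 acts in membrane traffic. Over the whole of GLT1, the H3K4me2 ranges overlapped (2095, 1897 and 1707 bp in WT, 1489, 1137 and 2057 bp in pkl). With centring 24 windows were called, and 0 lower, against 2.01% and 0.473% of all windows, and 21 of the 23 were among them. With equal length under peaks 4 were higher and 4 lower, against 0.740% and 2.08% of all windows, and 3 of the 23 were among those called. Leaving out pkl replicate 1, 2 or 3 left 4, 1 and 0 calls, and leaving out WT replicate 2 left 14.

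In GMI1, both H3K4me1 and H3K4me3 were more extended in pkl. GMI1 (chromosome 5, 8251378 to 8262154) encodes a protein that acts in the repair of DNA breaks and is known to be induced by gamma irradiation. It was the one gene called for H3K4me1 among 250 long genes tested, where 0.549% of all 13480 genes were called higher and 0.148% lower. H3K4me1 covered 4210, 3867 and 3581 bp of it in WT and 9287, 8960 and 9183 bp in pkl. The mark thus went from 36.1% to 84.8% of the gene (log2 1.22 ± 0.0711 SE, adjusted p = 0.00308). H3K4me3 was at 0 bp in all 3 WT libraries and at 282, 332 and 304 bp in pkl, close behind the start (mean position 153 bp). Its adjusted p was 3.14e-05, but with 0 bp in WT the gene entered the test through its pkl libraries alone and so had to differ. H3K4me2 had 1135, 630 and 554 bp in WT and 505, 687 and 1017 bp in pkl, and these ranges overlapped. Its mean position was 4332 bp in WT and 368 bp in pkl. GMI1 had 15.5 ± 0.889 FPKM in pkl. Without pkl replicate 1 or pkl replicate 2 no long gene was called for H3K4me1, and with the other single libraries left out there were 1 or 2.

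For H3K4me3, 3 of 231 long genes were called higher and 0 lower, while 1.14% of all 16781 genes were called higher and 0.387% lower. Besides GMI1 these were ESP and AT3G60961. ESP encodes separase, the protease that lets sister chromatids part (chromosome 4, 12033437 to 12043728). It had 477, 513 and 510 bp in WT and 621, 651 and 679 bp in pkl (log2 0.32, adjusted p = 0.0351). AT3G60961 (chromosome 3, 22541319 to 22552529), which another gene overlaps, had 1258, 1158 and 1183 bp in WT and 1648, 1539 and 1628 bp in pkl (log2 0.39, adjusted p = 0.0177). In both genes the groups were apart with all peaks. AT3G60961 was no longer called with equal length (log2 0.12, adjusted p = 0.339) or with a −log10 q of at least 10 (adjusted p = 0.342), and ESP was no longer called when centred (adjusted p = 0.118). With pkl replicate 1 left out 0 genes were higher and 1 lower, and 1 was called without WT replicate 2, WT replicate 3, pkl replicate 2 or pkl replicate 3. In windows, 2 of 261 were called higher for H3K4me3 and 0 lower, where 1.10% and 0.330% of all windows were. They lay in the first kb of ESP and GMI1.

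**Figure D3:**
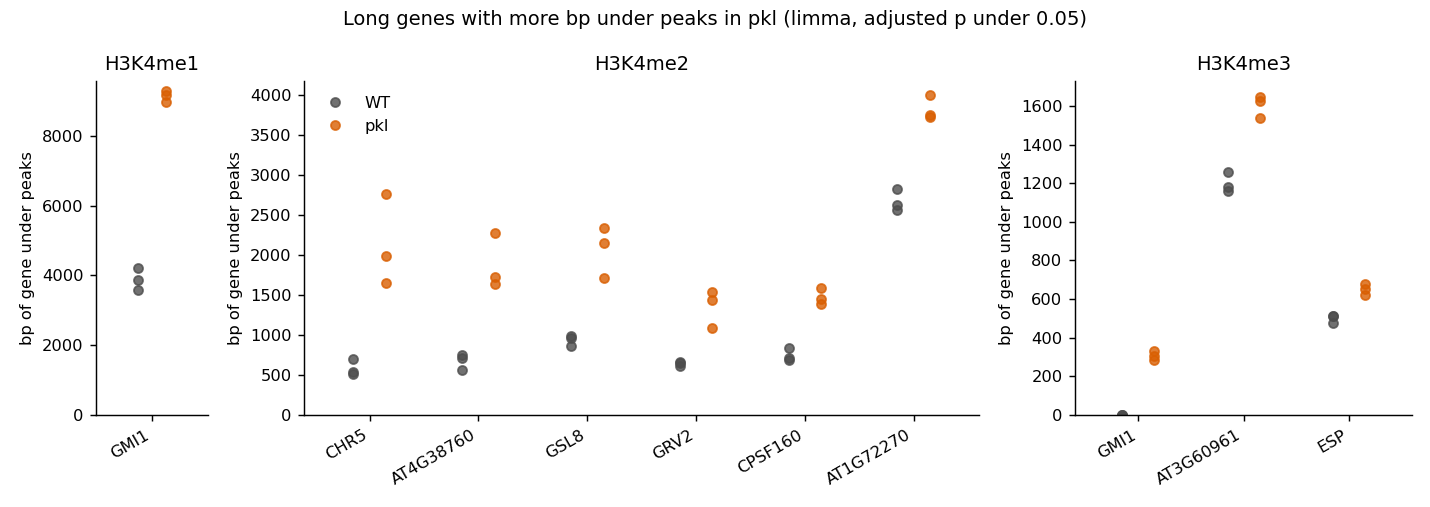
bp of gene under peaks in the 3 WT (grey) and 3 pkl (orange) libraries for each long gene called higher in pkl by limma, for H3K4me1 (left), H3K4me2 (middle) and H3K4me3 (right). In every gene shown the 3 pkl values lie above the 3 WT values, and GMI1 is at 0 bp of H3K4me3 in all WT libraries.

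For H3K4me1, 8 of 2342 windows were called higher in pkl and 0 lower, with a background of 0.255% and 0.105%. At equal length under peaks 9 were higher and 3 lower, against 0.170% and 0.407% of all windows. Of the 8 windows called with all peaks, 6 held 746 to 897 bp in the WT libraries and were filled in every pkl library. In ATM, 790, 817 and 799 bp of the window 26 to 27 kb from the start were covered in WT and 1000 bp in each pkl library. A filled window has no spread, which makes the error of such a difference small. In GMI1 the window from 3 to 4 kb went from 0 bp in all WT libraries to 1000, 894 and 1000 bp. It entered the test through its pkl libraries alone and so had to differ. The count of higher windows was 14 without WT replicate 1, 5 without WT replicate 3 and 1 without any one of the pkl replicates, and 1 window was called lower without pkl replicate 1 or pkl replicate 3. The myosin gene XIF, named after its values were seen, had 3809, 4938 and 4002 bp in WT and 7246, 7582 and 7645 bp in pkl, with groups apart but an adjusted p of 0.0794.

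Compared with genes of 4000 to below 8000 bp in the same libraries, the long genes carried more H3K4me1 and less H3K4me2 and H3K4me3 per length. Their H3K4me1 share was higher by 21.0 percentage points (20.6 to 21.5 over the 6 libraries), and their H3K4me2 and H3K4me3 shares were lower by a mean difference of -6.33 and -5.32 points. Each direction held in 6 of 6 libraries, with an exact sign-flip p of 0.0312, the smallest that 6 libraries allow. The value was the same after adjustment over the 3 marks. The share is divided by the length that defines the classes, so this test cannot separate a difference in marking from that division. In bp the start-proximal marks were much alike in both classes: H3K4me3 covered 633 bp ± 16.2 of a long gene and 583 bp ± 18.1 of a shorter one in WT, and H3K4me2 784 bp ± 51.5 and 707 bp ± 49.1. The ends without H3K4me1 were also similar in bp. Averaged over the WT libraries, its median first base lay at 630.5 and 675.7 bp in the long and shorter genes. Its median last base lay 590.2 and 597.7 bp before the end.

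The H3K4me2 difference between genotypes was not limited to long genes. In genes of 4000 to below 8000 bp the mark covered 707 bp ± 49.1 in WT and 944 bp ± 104.6 in pkl, and the peak nearest the start ended at 946 bp ± 33.4 and 1231 bp ± 108.4. Long genes exceeded them by 77.0 bp ± 12.8 in WT and 277 bp ± 148.3 in pkl. This excess differed by 200 bp with no overlap between the genotypes (exact p = 0.10, adjusted 0.125). As a share of gene length the difference between genotypes was no larger in the long genes, at 4.29 percentage points against 4.57 in genes of 4000 to below 8000 bp (14.1% ± 0.979 in WT and 18.6% ± 2.01 in pkl).

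A few long genes departed from the common pattern. The highest H3K4me1 shares in WT were 96.8% in GSL10, a callose synthase, 95.4% in AT5G49430, 95.3% in PRP40B, a pre-mRNA splicing factor, 95.2% in AT1G48090 and 95% in NRPA1, the largest subunit of RNA polymerase I. AT5G49430 and PRP40B had no H3K4me3 or H3K4me2 within the gene in WT, yet 5.89 ± 0.340 and 14.8 ± 0.521 FPKM in pkl. At the other end, 8 of the 260 genes had no H3K4me1 in any of the 6 libraries, and 7 had none of the 3 marks in any of 18. Among them were AT5G32690, AT2G34100 and AT4G10201, which were also listed at 0 FPKM in pkl. AT3G24870 and AT3G24880 were unlike these: they lie 1193 bp apart, had no mark in any library, and had 4.69 ± 0.294 and 4.21 ± 0.364 FPKM. The ubiquitin ligase gene UPL2 had only 5.94% of H3K4me1 in WT with 33.4 ± 1.94 FPKM, and UPL1, from the same family, 13.4% with 20.1 ± 1.61 FPKM. How reads that match several places were handled is not given in the sources used here, so values of such related genes are uncertain.

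In 6 of the 227 genes with H3K4me3 in all WT libraries, the mean position of that mark lay past the midpoint of the gene. These were the myosin genes XIF (8597 bp from the start of an 8863 bp gene) and XIB (5117 bp), EMB2788, AT1G66880, AT3G60961 and PHOT2, a blue-light receptor (4474 bp). Another gene overlaps XIF, AT1G66880, AT3G60961 and PHOT2, but none overlaps EMB2788 or XIB. In PHOT2, H3K4me3 covered 3313, 3246 and 3292 bp in WT and 4011, 3883 and 3390 bp in pkl, with an adjusted p of 0.339.

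PKL peaks were scarce at long genes in WT and frequent in the mutant lines. A gene was counted as bound if at least 50 bp of the gene or of the 1000 bp upstream lay under PKL peaks. In the WT libraries 5, 5 and 19 of the 260 genes were bound, whereas the jaw-5D libraries bound 110, 111 and 99, those of pifQ 106, 102 and 116, and those of hy5 99, 97 and 107. WT replicate 3 stood apart from the other WT libraries, and no mutant library overlapped with WT. Bound in at least 2 of 3 libraries were 5 genes in WT (1.92%, against 2.15% of all nuclear genes), 108 in jaw-5D (41.5%, against 30.4%), 108 in pifQ (41.5%, against 30.5%) and 98 in hy5 (37.7%, against 27.4%). Genes of 4000 to below 8000 bp gave 39.7%, 40.4% and 36.4% in the mutant lines, and a longer gene also offers more bp to a peak.

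The WT lists differ from the mutant lists in format: they end at a q of 0.01, the others at 0.05, and they hold 632 to 2824 peaks, the others 11379 to 13979. Genotype and the making of the list cannot be told apart in these comparisons. By limma, 80 of 129 long genes tested had more PKL bp in jaw-5D than in WT, 77 in pifQ and 72 in hy5, where 67.8%, 68.6% and 61.7% of all 11782 genes tested were called higher. The shares of long genes called were thus near these backgrounds. At most 21 of the 129 had 50 bp of PKL peaks in any WT library, so the others entered the test through mutant libraries and their direction was fixed by that filter. Shifts of 1.15, 1.23 and 1.11 (log2) separated the mutant lines from WT in genes bound in all libraries. Relative to them 45, 43 and 40 long genes were higher and 1, 3 and 3 lower, against 35.2%, 33.2% and 32.8% of all genes higher and 1.43%, 1.52% and 1.96% lower. With the same number of peaks per list, the strongest 632, the bound genes numbered 4 in WT, 4 in jaw-5D, 7 in pifQ and 4 in hy5.

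PKL cover peaked just before the starts of long genes and, in the mutant lines, as high or higher around their ends. At 200 to 400 bp past the end, 19.4%, 18.2% and 18.7% of bases were under PKL peaks in jaw-5D, pifQ and hy5. In WT the share there was 0.688%. At 200 to 0 bp before the start, 19.4%, 17.4% and 16.1% of bases were under PKL peaks in jaw-5D, pifQ and hy5 and 1.53% in WT. From 400 to 600 bp inside, the shares were 1.63%, 2.12% and 1.81%, and 0% in WT. The median summit lay 24.5 to 88.0 bp before the start in the 9 mutant libraries and 102 to 129 bp before it in WT. Only peaks that reached the gene or its 1000 bp upstream entered this count, so peaks wholly past the end did not. Of the 130 to 166 peaks per mutant library, 46.5 to 57.9% had their summit upstream, and 37 to 52 had it at least 2000 bp inside the start, gene ends included. In single 200 bp bins from 1 to 4 kb, 0.385 to 1.53% of bases were under PKL peaks in the mutant lines.

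**Figure D4:**
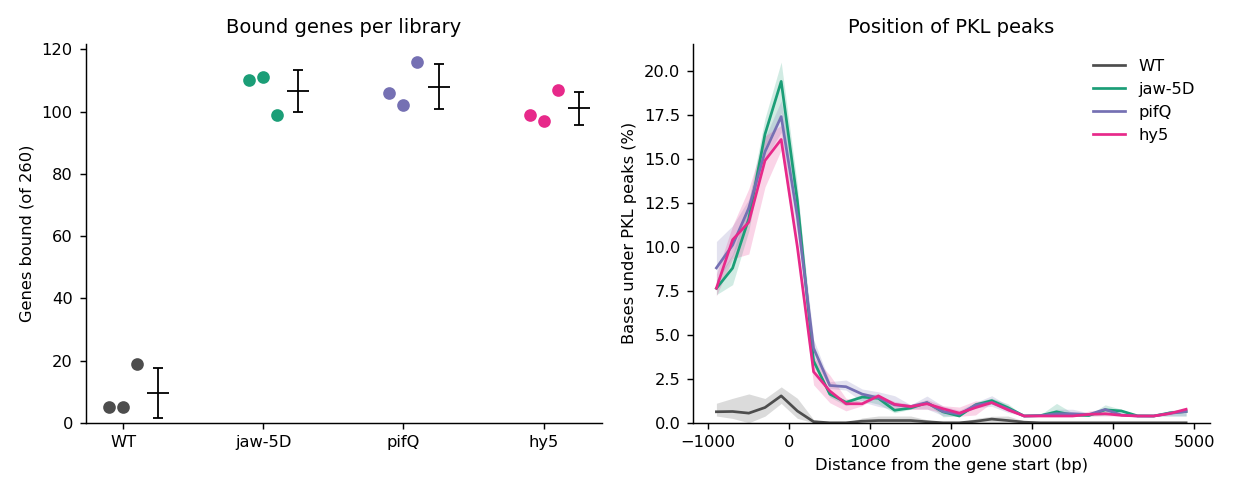
Left, number of the 260 genes bound by PKL in each library (dots) with the mean and SD beside them (n = 3). Right, share of bases under PKL peaks (%, 200 bp bins) against distance from the gene start, as the mean and range of 3 libraries. WT libraries bind 5, 5 and 19 genes, mutant libraries 97 to 116, and within the range shown all curves are highest just before the start.

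The 5 genes bound in at least 2 WT libraries were AT3G12020, CSI1, AT5G06970, AT5G11700 and AT1G58602. CSI1 links cellulose synthase to microtubules. Its promoter held 291, 256 and 360 bp of PKL peaks in WT, with summits 115 or 150 bp before the start, and the means of the jaw-5D, pifQ and hy5 lines were 500, 566 and 537 bp. AT3G12020 had 298, 310 and 414 bp in WT, with summits 20 to 55 bp before the start, and 734, 668 and 626 bp on average in the mutant lines. All 3 of the WT libraries held peaks at these genes and at AT5G06970, where the summits lay 1000 to 1077 bp before the start. AT5G06970 had 347, 329 and 127 bp in WT and means of 588, 416 and 554 bp in the mutant lines, and AT5G11700 had 365, 370 and 0 bp in WT and means of 1018, 990 and 922 bp. AT1G58602 was exceptional in extent. It had 265, 0 and 2050 bp of PKL in WT and means of 9654, 12075 and 11253 bp in the jaw-5D, pifQ and hy5 lines, over a gene of 19351 bp (chromosome 1, 21746354 to 21765705). Over the 9 mutant libraries its mean was 10994 bp, and the next of the 260 genes, AT1G01320, had 2175 bp. AT1G58602 carried H3K4me1 on only 10.5% of its length in WT, no H3K4me2 in WT, and had 80.4 ± 2.54 FPKM in pkl, and 1 other gene overlaps it.

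In all 9 mutant libraries 54 long genes were bound (20.8%, against 16.7% of all genes), and 101 were bound in none (38.8%, against 53.1%). H3K4me2 was longer in pkl in both sets. In the 54 genes it covered 946, 870 and 877 bp in WT and 1050, 1435 and 1650 bp in pkl. In the 101 genes, of which 1 was bound in WT, it covered 785, 646 and 726 bp in WT and 851, 1164 and 1204 bp in pkl. In neither set did the genotypes overlap. The median FPKM in pkl was 19.1 in the former and 10.6 in the latter.

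Nearly all long genes were expressed in pkl, at moderate levels. Their median was 12.9, 13.5 and 13.5 FPKM in the 3 libraries, against 11.9, 12.5 and 12.8 FPKM for genes of 4000 to below 8000 bp and 3.39, 3.58 and 3.69 FPKM for all nuclear genes. At least 1 FPKM was reached by 91.9 to 92.7% of them, against 59.1 to 59.7% of all genes, while at least 100 FPKM was reached by 1.54%, against 4.87 to 4.93%. FPKM is scaled by exon length, so genes can be compared by it. The highest mean was that of GLU1, the ferredoxin-dependent glutamate synthase of leaves, at 513 ± 9.97 FPKM. It was followed by GLT1 at 213 ± 7.53, AT4G28080 at 202 ± 4.28, AT1G01320 at 120 ± 5.62 and SEX1, the enzyme that starts starch breakdown, at 92.7 ± 5.63 FPKM. Listed at 0 in all 3 libraries were AT2G08986, AT2G34110, AT2G34100, AT3G31005, AT4G10201 and AT5G32690. Of these, AT2G34110 carried 1206 bp of H3K4me3 in WT, and 3 other genes overlap it. The PKL gene had 31.8 ± 2.19 FPKM in pkl, so its transcript was still read. The labels do not say what the mutation does to the transcript, and no WT level was used here, so this is no check of the label. H3K4me1 covered 8857, 8640 and 8809 bp of the PKL gene in WT and 8998, 9109 and 9087 bp in pkl, with the groups apart but an adjusted p of 0.845 by limma. Its H3K4me2 was at 0, 0 and 302 bp in WT and 0, 786 and 1496 bp in pkl, and the groups overlapped.

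The marks were found together in most long genes. In pkl, 222 of the 260 (85.4%) carried all 3 marks in every library, against 31.4% of all nuclear genes, with medians of 13.3, 14.3 and 14.9 FPKM. H3K4me1 and H3K4me2 without H3K4me3 were carried by 11 genes, with medians of 0.386, 0.439 and 0.459 FPKM, and 7 carried no mark in pkl, with a median of 0 in each library. Ranked by FPKM in pkl and divided into 4 sets of 65, the genes of the lowest set had 734 bp of H3K4me2 in WT and 888 bp in pkl, and those of the highest 844 and 1458 bp. From the lowest set to the highest, the differences were 154, 376, 604 and 614 bp. In each set all pkl libraries lay above all WT libraries. Across the 260 genes, the difference in H3K4me2 bp and the FPKM in pkl had a Spearman rho of 0.466, and that for H3K4me3 was 0.0320. These are descriptions across genes, which share libraries and are not independent replicates, and expression in WT was not used.

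**Figure D5:**
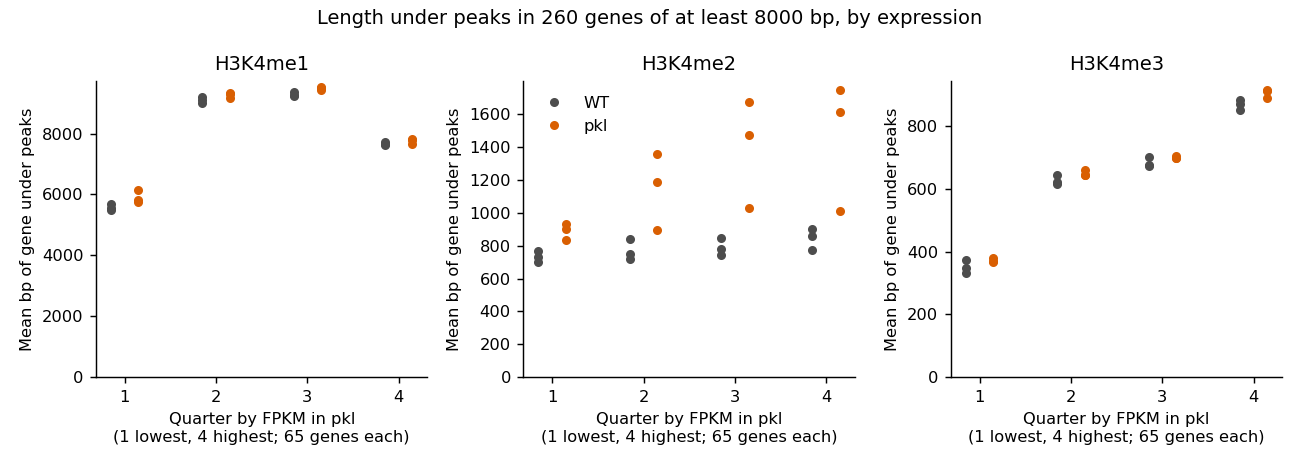
Mean bp of gene under peaks in each of 3 WT (grey) and 3 pkl (orange) libraries, for the 260 genes in 4 sets of 65 by FPKM in pkl, for H3K4me1, H3K4me2 and H3K4me3. The H3K4me2 difference between genotypes is 154 bp in the lowest and 614 bp in the highest set, and H3K4me3 is longer in sets of higher expression in both genotypes.

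Genes were also grouped by words in their RefSeq symbols and synonyms, since the reference gives no descriptions. Of 11 lists, 9 matched a long gene and 73 of the 260 genes fell in at least 1. The motor and cytoskeleton list held 16 genes, of which 15 were tested for H3K4me2. Of these 0 were called higher or lower, with a median log2 difference of 0.459, close to the 0.472 of all long genes. Its most expressed members were the myosins XIK (30.5 ± 1.61 FPKM) and MYA2 (22.2 ± 0.770) and the microtubule protein MOR1 (21.4 ± 0.739). XIK had 0, 691 and 251 bp of H3K4me2 in WT and 913, 4557 and 2326 bp in pkl, and the groups were apart but widely spread (adjusted p = 0.286). In this list the groups were apart with pkl higher in 7 of 16 genes for H3K4me2 and in 4 for H3K4me1, where 38.1% and 15.0% of the 260 genes and 10.9% and 4.58% of all genes were, so these counts are no result about motor genes.

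The chromatin list held 12 genes, among them the remodelers BRM (24.0 ± 1.38 FPKM) and CHR5 (17.7 ± 0.262), the histone acetyltransferase HAC1 (21.5 ± 0.727) and PTM (25.2 ± 0.931). Of 12 tested for H3K4me2, 1 (CHR5) was called higher and 0 lower, and the median log2 difference was 0.710. Their mean H3K4me2 share was 9.35% in WT and 17.1% in pkl. Of the 12 cell wall glucan genes 11 were tested, with 1 (GSL8) called higher and a median of 0.482. The RNA list held 12 genes, with NUA, a nuclear pore protein (22.2 ± 0.596 FPKM), and EDD1, a glycyl-tRNA synthetase (32.2 ± 1.91), of which 11 were tested and 0 called, with a median of 0.418. Of 7 ubiquitin genes, including the deubiquitinases UBP12 (54.6 ± 1.23 FPKM) and UBP13 (40.2 ± 2.67), 0 were called, with a median of 0.413.

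The remaining lists were small, and in them 0 genes were called for H3K4me2. The median log2 difference was 0.249 over 7 transporters, including the calcium pump ACA8 and the vacuolar transporter ABCC1 (51.0 ± 1.01 FPKM). It was 1.5 over 3 trafficking genes, the clathrin heavy chains AT3G08530 (85.7 ± 6.19 FPKM) and AT3G11130 (77.4 ± 2.19) and the exocyst subunit SEC8 (35.1 ± 1.10). Of these 3 genes, 2 carried H3K4me2 in all WT libraries, and in 0 were the groups apart with pkl higher. The median log2 difference was 0.195 over 3 genes of replication and repair, RAD50, ATM and ATR, and 0.861 for the growth kinase gene TOR alone (13.9 ± 0.717 FPKM). For H3K4me1 and H3K4me3, 0 genes of any of the 9 lists were called in either direction, and GMI1 and ESP are in none of them. Kinases and phosphoinositide genes, and disease resistance genes, matched no long gene by name.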

How the data were processed

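The members and lists were chosen with earlier results of these data known. Per the submitters' processing notes, the tools MACS2 2.2.5, Bowtie2 2.3.3, HISAT2 2.1.0, deepTools, fastp and SAMtools 1.6 and the build TAIR10 are named, with no role stated. The authors deposited raw gene counts with exon positions, and FPKM. They deposited 1 peak list per library, with a score (10 times −log10 q), a fold (ratio) enrichment, and −log10 p and −log10 q. Of the RNA tables, 6 columns (3 per table) match no sample and were not used, so no expression comparison was made. The Hi-C and input samples were not analysed here.

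Gene span, exons and strand came from the count table, and symbols from RefSeq (names only). The bp under peaks were summed per gene and library, and in 1 kb windows. A feature entered the test if 3 or more libraries held at least 150 bp (PKL 50 bp), and limma 3.58.1 was run on log2(bp + 100), two-sided, with Benjamini-Hochberg adjustment over all nuclear genes or windows and a threshold of 0.05. The fit was tested on simulated data. Where a group is at 0 bp in every library, the fitted difference rests on the 100 bp added and bounds nothing. For H3K4me2 and for PKL against WT, values relative to the shift of genes marked in every library (centred) are also given. Means over the genes were compared by exact permutation over libraries. The same replicate number in 2 groups did not pair samples: correlations of deviations ran from -0.0880 to 0.0813, and 0 of 18 pairs exceeded 0.1. The 5 tests of edges, overlap and excess, the centred windows and the trimming to equal length were added after seeing the data. Named genes were the called genes with groups apart, the 5 longest, those bound by PKL in at least 2 WT libraries, the 5 highest and 5 lowest by H3K4me1 share, those with H3K4me3 past the midpoint, the 5 highest and those at 0 by FPKM, PKL, and up to 4 per list.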

Additional observations from a re-analysis of the deposited data

How the results depend on the processing

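The difference in share between length classes, which cannot be separated from the division by length, kept its direction under every alternative tried. With WT or pkl libraries alone the exact sign-flip p cannot go below 0.25, and the values were 21.1 and 21.0 percentage points for H3K4me1, -6.19 and -6.46 for H3K4me2 and -5.23 and -5.42 for H3K4me3. The share and position differences between genotypes kept their direction in all alternatives, except the position of H3K4me3; their exact p cannot pass 0.05 in any, so it says nothing of stability. Their sizes moved: the H3K4me2 position difference of 488.1 bp was 77.1 bp with strong peaks and 71.8 bp at equal length, and the H3K4me1 share difference of 1.76 points was 10.1 and 0.675. The H3K4me3 position difference, -0.902 bp, turned to 0.0452 as a percent of gene length. It was 11.6 bp without WT replicate 3, 3.58 bp without pkl replicate 1 and 0.597 bp without pkl replicate 2. With single libraries left out it lay between -8.57 and 11.6 bp. It was -11.2 bp with strong peaks and -21.3 bp at equal length. The cause was not tested.

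With the replicate number as a block, the calls of long genes were 0 for H3K4me1, 0 for H3K4me2 and 1 for H3K4me3, and those of windows 0, 1 and 1. With centring and the block they were 0, 1 and 1 genes. The block costs degrees of freedom and the numbers do not pair the samples, and it moved no PKL count beyond 1.5 times. A −log10 q of at least 10 gave 7 genes and 45 windows for H3K4me1 and 10 windows for H3K4me2. Centring gave 3 windows for H3K4me1 and 1 for H3K4me3, and equal length gave 8 and 4 windows for H3K4me2 and H3K4me3. Counting genes only from 500 bp left 1 for H3K4me2 and 1 for H3K4me3, and 500 bp windows 1 for H3K4me3. Leaving out single libraries gave 0 to 2 genes and 1 to 14 windows for H3K4me1, 0 to 9 genes and 0 to 16 windows for H3K4me2, and 1 to 3 genes and 0 to 3 windows for H3K4me3. For all of these the cause was not tested.

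PKL calls in jaw-5D, pifQ and hy5 were 1, 1 and 0 of the 7 genes left to test with equal numbers of peaks, 46, 46 and 43 centred, and 45, 44 and 34 of 83 without the upstream 1000 bp. Genes bound by PKL numbered 21 in WT when 1 library was enough and 3 when all 3 were needed, and 4, 7 and 4 in the mutant lines with equal numbers of peaks. Median FPKM was 13.3, and 14.0 over the 247 genes with a mean of at least 10 counts. Without ChIP sequencing depths no limit of detection can be given for a weak domain, and 3 libraries per group cannot reach an exact p below 0.10.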
